A study of Mus musculus with 10 samples.

Results

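The sarcomere is the contractile unit of heart muscle, and the genes described here encode its thin filament, its Z-disc, its M-band and their partners. The group holds 41 genes that were chosen by name, with myosin chains left out, among 22911 genes that the arrays could name through a RefSeq accession. All 41 genes were measured by 67 probes and all 41 passed the filter on dim probes, as 14645 genes did in all. Their levels were compared between 3 regions of the heart of C57BL/6N mice, namely the RV (right ventricle), the LV (left ventricle) and the septum that divides them. No genotype, treatment or operation is named for these samples, and age and sex are not given in the sources used here. After perfusion with cold saline, hearts were divided into the 3 regions, frozen and powdered, so each sample is the RNA of a whole piece of wall with all its cell types. In such tissue, fewer cells of a type and less RNA per cell cannot be told apart.

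Each sample's total RNA was labelled with Cy3 and read on 1 single-colour mouse array made by Agilent. The data comprise 4 RV, 3 LV and 3 septum arrays, and this number limits the precision of every value. Different mice were used for each experiment according to the design, but no label says which arrays shared an animal, so p-values measure the spread between these samples. Between 53.7% and 64.0% of the spots on an array were well above background, and 0 were saturated. A level is the log2 signal of a probe minus the log2 of its array's 75th percentile, so that a difference of 1 is a doubling, and each gene was read by its brightest probe. A gene was called when the adjusted p of limma was below 0.05. The arrays carried 2 scan dates, and arrays that share a date are called a slide here, since slide numbers were not read. The first slide in this sense held RV 1, RV 2, LV 1, LV 2, septum 1 and septum 2. The second held the remaining 4 arrays.

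In a sarcomere, thin filaments of actin are anchored at the Z-disc and slide along thick filaments of myosin, which are tied together at the M-band. Tropomyosin lies along the actin and blocks it until calcium binds troponin C, which acts through troponin I and troponin T. Myosin-binding protein C tunes the myosin heads, and titin spans from Z-disc to M-band as a spring. Many of these proteins come in cardiac, slow skeletal and fast skeletal isoforms, each from its own gene.

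All 10 cardiomyocyte markers were well above background on every array, with overlapping summed linear levels of 3237 to 3623 in the RV, 3452 to 3976 in the LV and 3070 to 3888 in the septum. Within this list the exchanger gene Slc8a1 was lower in the RV than in the LV by 0.51 (adjusted p = 0.013) and than in the septum by 0.49 (adjusted p = 0.022), and 0 others were called. Markers of non-muscle cells also moved with the regions. Of 7 adipocyte markers, 4 were called higher in the RV than in the LV, and of 7 fibroblast markers, 3. The called adipocyte genes Adipoq, Cidec, Plin1 and Retn differed by 4.77, 4.24, 3.43 and 3.26. Adipoq and Plin1 were above background on only 7 and 5 of 10 arrays, so their sizes are uncertain. The adipocyte genes Lep, Fabp4 and Lpl were not called, at -0.15, -0.24 and -0.23. The summed adipocyte level was 336 to 385 in the RV, 404 to 440 in the LV and 367 to 435 in the septum. Lpl and Fabp4 dominate this sum, at 8.03 and 6.72 on RV 1, where Cidec was 2.31, so it does not follow the 4 called genes. The summed fibroblast level was 353 to 421 in the RV, 231 to 279 in the LV and 284 to 332 in the septum. Of 6 mesothelium markers, which label the outer surface of the heart, 5 were called higher in the RV than in the septum. The summed mesothelium level was 7.51 to 21.9 in the RV, 4.42 to 7.18 in the LV and 1.41 to 3.04 in the septum. The part of these cells in the differences described next was not tested.

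Of the 41 sarcomere genes, 6 were called between the RV and the LV, 4 lower and 2 higher in the RV. Over all 14645 genes this comparison called 4.98%, with 1.84% lower and 3.14% higher. The comparison of the septum with the same RV arrays also called 6 sarcomere genes, 4 lower and 2 higher in the RV, where 2.70% of all genes were called, 1.02% lower and 1.68% higher. Myot, Mybpc3 and Tnnc1 were lower in the RV in both comparisons, Pdlim3 and Tnnt1 were higher in both, Pdlim5 was called lower against the LV and Mybpc2 was called lower against the septum. The remaining 34 genes were called in neither comparison. The median difference of the 41 genes was -0.19 between the RV and the LV and -0.14 between the RV and the septum, beside -0.05 and -0.04 over all genes. The 10 cardiomyocyte markers had similar medians of -0.18 and -0.11, so a shift of this size was not particular to the sarcomere genes. In 23 of 41 genes the RV and LV arrays did not overlap, 18 of them lower in the RV, beside a background of 22.5%, or 13.4% for lower genes. For the RV and the septum 14 genes did not overlap, 11 of them lower in the RV, beside 16.0% of all genes, or 9.05% for lower genes.

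**Figure D1:**
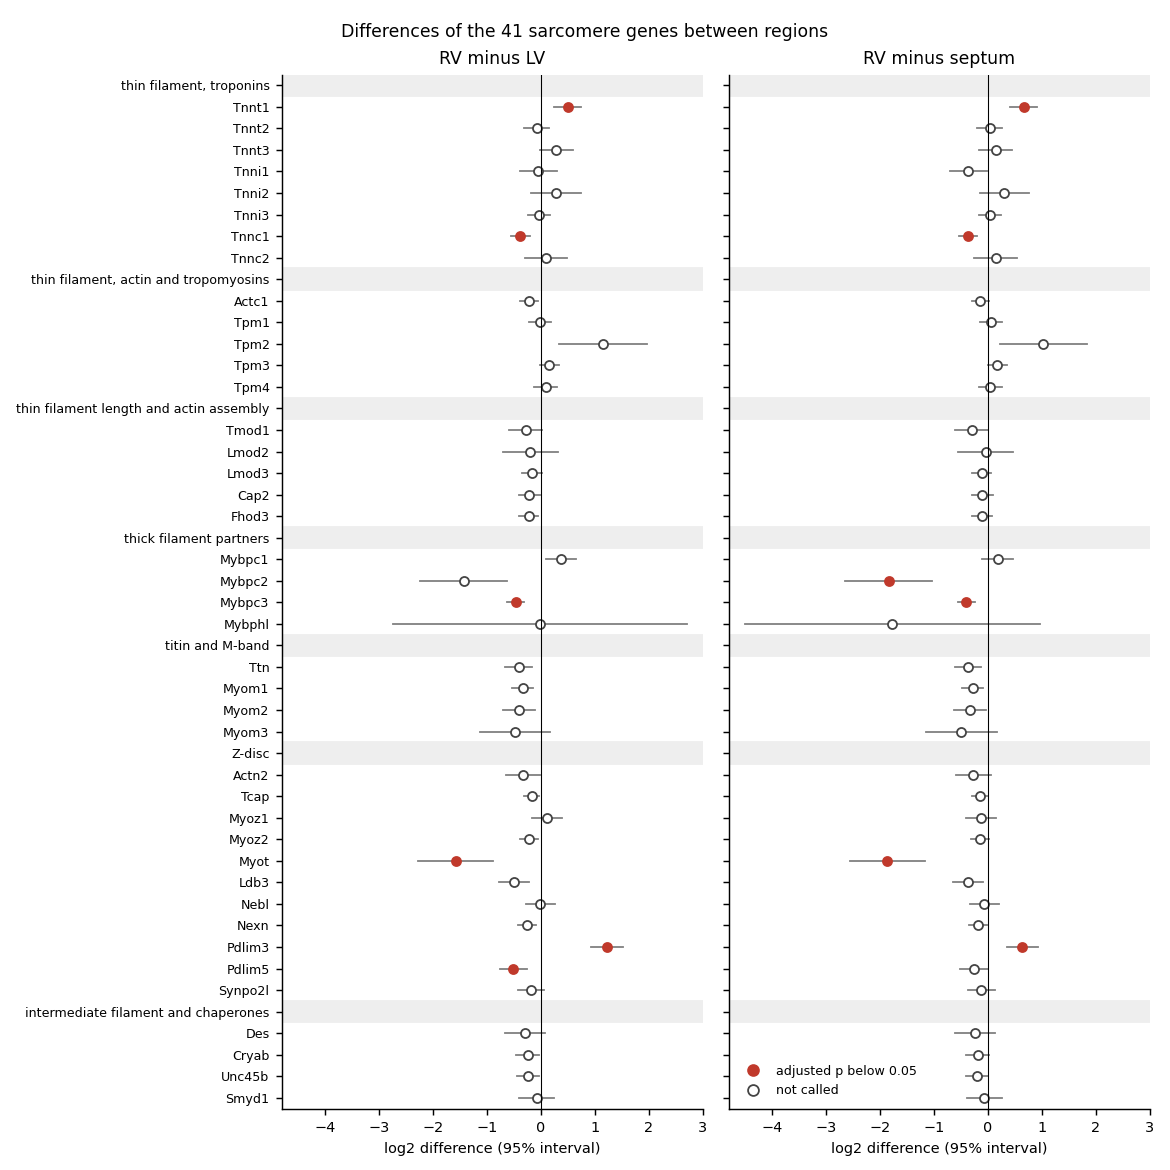
Log2 difference of each of the 41 sarcomere genes (points) with its 95% interval (lines), RV minus LV on the left and RV minus septum on the right, in 7 role groups. Filled points are called genes: 6 in each panel, led by Myot at -1.59 and -1.87 on the low side and by Pdlim3 at 1.22 and Tnnt1 at 0.66 on the high side.

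These counts depended on how the slides were treated. Arrays with the same replicate number deviated from their region means together, as other arrays of the same slide did. With the number as a block 18 sarcomere genes were called between the RV and the LV (background 17.9%) and 11 between the RV and the septum (background 8.69%). RV 4 shares its number with no other array, so every difference with the number as a block rests on RV 1, RV 2 and RV 3. With the slide as a block 19 genes were called between the RV and the LV, 15 lower and 4 higher in the RV, where the background was 21.3%, or 12.5% lower and 8.81% higher. Against the septum the slide block called 12 genes, 9 lower and 3 higher in the RV, beside 11.0% of all genes, or 5.71% lower and 5.34% higher. The 13 genes that the slide block called between the RV and the LV, and that were not called without a block, included Mybpc2, Ldb3 and Ttn as the largest decreases and the only 2 increases, Tpm2 and Tnni2. Within slide 1 alone 7 and 5 genes were called, beside 3.37% and 2.12% of all genes. Within slide 2 alone, with 1 LV and 1 septum array that were assumed to vary like the RV arrays, 1 and 0 were called, beside 1.39% and 0.649%. The counts also fell when single arrays were left out. Against the LV, 2 genes were called without RV 2, RV 4, LV 1, LV 2 or LV 3, and 3 without septum 2, while the share of all genes called in these fits also fell, to between 1.66% and 3.41%. Against the septum, 0 genes were called without RV 2, septum 2 or septum 3, 1 without RV 4, 2 without septum 1, and 3 without RV 1 or any LV array, beside 0.526% to 2.15% of all genes.

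**Figure D2:**
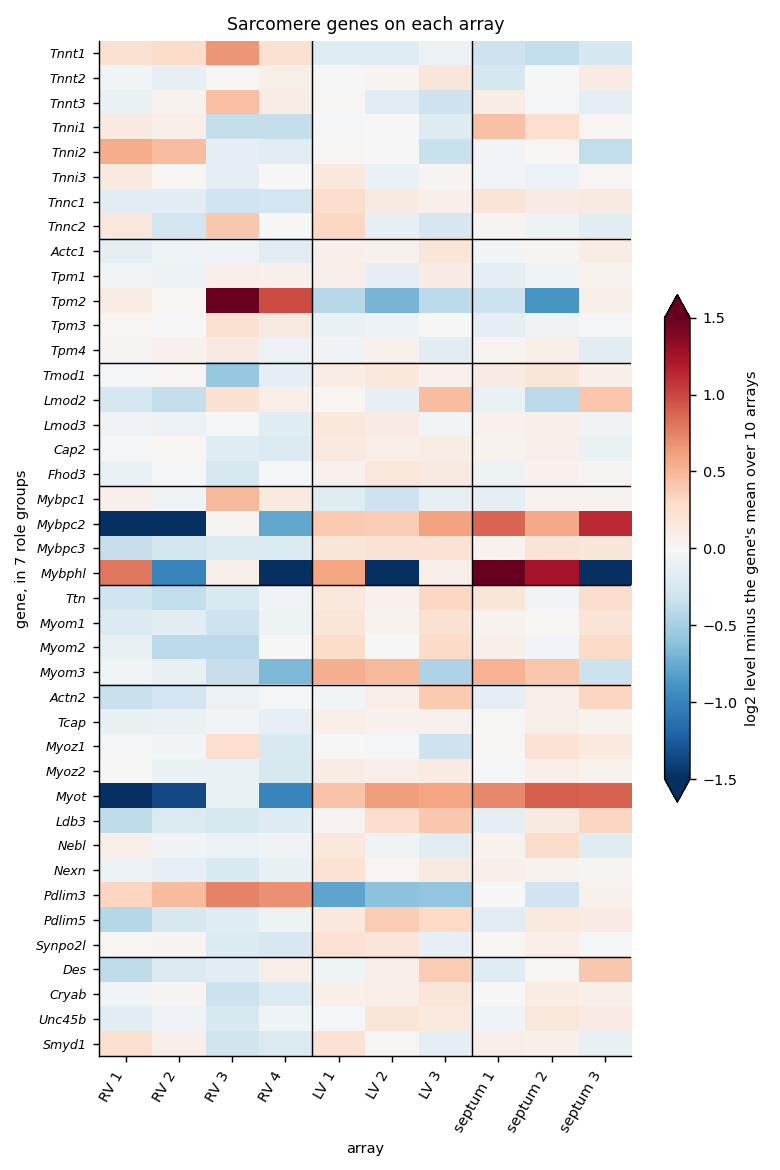
Level of each sarcomere gene (rows, in 7 role groups) on each of the 10 arrays (columns), as the log2 difference from the gene's mean over all arrays. Myot and Mybpc2 are lowest on the RV arrays, Pdlim3 is highest there, and Mybphl varies most among arrays of the same region, with septum levels from -3.36 to 2.09.

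The sequences just before the annotated start sites are shown for the genes called between the RV and the septum. Whether they regulate these genes in the heart was not tested. The RefSeq table held 1 window for each of these genes except Myot. Each sequence is the 250 bases before the start site on the GRCm38.p6 assembly, read 5′ to 3′ along the gene, with capitals for matches to 3 muscle motifs searched on both strands: the MCAT element CATTCC, the MEF2 site and the CArG box.
Mybpc3, chr2:91117894-91118143, plus strand: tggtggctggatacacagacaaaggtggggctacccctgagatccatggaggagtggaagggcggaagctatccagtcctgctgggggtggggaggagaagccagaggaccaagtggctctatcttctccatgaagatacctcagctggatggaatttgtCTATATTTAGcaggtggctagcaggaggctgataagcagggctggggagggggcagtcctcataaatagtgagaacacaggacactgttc
Mybpc2, chr7:44524670-44524919, minus strand: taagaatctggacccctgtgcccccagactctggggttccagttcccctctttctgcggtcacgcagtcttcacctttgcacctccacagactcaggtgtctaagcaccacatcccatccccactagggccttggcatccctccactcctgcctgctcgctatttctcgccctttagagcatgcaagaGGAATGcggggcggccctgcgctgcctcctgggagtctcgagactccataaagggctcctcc
Tnnc1, chr14:31208062-31208311, plus strand: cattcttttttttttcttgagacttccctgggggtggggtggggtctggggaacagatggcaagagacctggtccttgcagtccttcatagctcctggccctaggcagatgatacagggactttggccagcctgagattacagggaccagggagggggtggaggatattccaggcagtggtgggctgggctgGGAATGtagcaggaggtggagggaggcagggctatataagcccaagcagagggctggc
Pdlim3, chr8:45885237-45885486, plus strand: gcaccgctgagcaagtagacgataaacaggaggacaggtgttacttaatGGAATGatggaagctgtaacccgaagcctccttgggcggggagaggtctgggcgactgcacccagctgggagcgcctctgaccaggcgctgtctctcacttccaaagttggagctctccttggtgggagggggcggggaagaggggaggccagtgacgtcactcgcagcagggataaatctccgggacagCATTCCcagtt
Tnnt1, chr7:4515976-4516225, minus strand: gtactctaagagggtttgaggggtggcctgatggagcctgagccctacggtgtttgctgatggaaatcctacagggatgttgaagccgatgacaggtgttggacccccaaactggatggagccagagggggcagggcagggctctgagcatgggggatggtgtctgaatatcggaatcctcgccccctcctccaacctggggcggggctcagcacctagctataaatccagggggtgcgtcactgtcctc
The match in Mybpc3 is a MEF2 site that starts 90 bases before the start site. Mybpc2 and Tnnc1 each hold 1 MCAT element on the reverse strand, starting 62 and 58 bases before the start site. Pdlim3 holds 2 MCAT elements, 201 and 11 bases before it, and Tnnt1 holds none of the 3 motifs. Of all 32851 windows of this length in the table, 12.6% held an MCAT element, 2.92% a MEF2 site and 1.47% a CArG box. Of the 40 windows of sarcomere genes, which stand for 31 of the 41 genes, 17.5%, 15.0% and 12.5% did. A MEF2 site was found in the windows of Mybpc3, Myom3, Myoz2, Synpo2l and Ttn, and a CArG box in those of Actc1, Ldb3, Myom1 and Nebl. These matches are a description of letters and not of bound sites. Both genes that were higher and genes that were lower in the RV held the MCAT letters.

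Among 8 troponin genes, 1 was called higher and 1 lower in the RV in each comparison. Tnnt1 encodes the slow skeletal troponin T. Its levels were 3.63, 3.68, 4.07 and 3.63 on RV arrays 1 to 4, 3.23, 3.23 and 3.32 on the LV arrays, and 3.10, 3.04 and 3.14 on the septum arrays. All RV arrays lay above all others, and RV 3 stood above the other RV arrays. The RV exceeded the LV by 0.49 (SE 0.11, 1.41-fold, adjusted p = 0.042) and the septum by 0.66 (SE 0.11, 1.58-fold, adjusted p = 0.022). A second Tnnt1 probe gave 0.42 (adjusted p = 0.059) and 0.54 (adjusted p = 0.037). The difference to the LV was 0.39 without RV 3, which was still called. It lost the call in the other 9 fits that left out an array, and the difference to the septum lost it without RV 2 or any septum array, with values from 0.55 to 0.70 over the 10 fits.

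Tnnc1 encodes the troponin C that cardiac and slow skeletal muscle share, and it moved the other way. Its levels were 6.73, 6.73, 6.59 and 6.60 in the RV, 7.15, 7.02 and 6.96 in the LV, and 7.08, 7.01 and 7.02 in the septum. The RV arrays were the lowest 4 and the LV and septum arrays overlapped. The RV lay below the LV by 0.38 (difference -0.38, SE 0.08, adjusted p = 0.028) and below the septum by 0.37 (difference -0.37, SE 0.08, adjusted p = 0.043). Within slide 1 these differences were -0.36 and -0.31, and within slide 2 they were -0.36 and -0.42. Leaving out an array kept the difference to the LV between -0.42 and -0.33, with the call lost without RV 2, RV 3, RV 4, any LV array or septum 2. The difference to the septum stayed between -0.40 and -0.35 and lost the call in all 10 fits, with adjusted p from 0.053 to 0.15.

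The troponin T and troponin I of the adult heart, Tnnt2 and Tnni3, were not called in any comparison, and were chosen for mention after their values were seen. Tnnt2 differed by -0.08 between the RV and the LV, with a 95% interval from -0.32 to 0.15. For Tnni3 the difference was -0.03, with an interval from -0.23 to 0.18. The fast skeletal troponin I gene, Tnni2, was called with both blocks. Its levels were 1.88, 1.79, 1.18 and 1.15 in the RV, 1.34, 1.32 and 0.99 in the LV and 1.28, 1.36 and 0.95 in the septum. The slides differed in level, so the regions overlapped over all arrays, while within each slide the RV arrays were highest. Without a block the RV exceeded the LV by 0.28 (SE 0.20, adjusted p = 0.50), and with the slide as a block by 0.36 (SE 0.08, adjusted p = 0.018). A block on the number gave 0.40 against the LV (adjusted p = 0.030) and 0.42 against the septum (adjusted p = 0.039). The 5 differences between the RV and the LV of Tnnt2, Tnnt3, Tnni1, Tnni3 and Tnnc2 ran from -0.08 to 0.28, and none of these genes was called without a block. Against the septum Tnni1 differed by -0.36 without a block (adjusted p = 0.33) and was called lower in the RV with the slide as a block.

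No gene among actin and the 4 tropomyosins was called, though Tpm2 had the second largest increase of all 41 genes against the LV. Tpm2 encodes beta-tropomyosin, which is abundant in skeletal and smooth muscle. Its levels were 2.34, 2.26, 3.74 and 3.21 in the RV, 1.82, 1.54 and 1.85 in the LV, and 1.91, 1.35 and 2.33 in the septum. RV 3 and RV 4 were the highest arrays, and septum 3 overlapped the RV. The RV exceeded the LV by 1.15 (SE 0.36, 2.22-fold, adjusted p = 0.11) and the septum by 1.02 (SE 0.36, adjusted p = 0.23). Against the LV it was called with the slide as a block (1.03, SE 0.23, adjusted p = 0.021) and with the number as a block (1.04, SE 0.26, adjusted p = 0.046). It was 0.62 within slide 1 and 1.63 within slide 2.

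The smooth muscle marker Cnn1, picked after its values were seen, was 2.57, 3.02, 5.12 and 4.38 on RV arrays 1 to 4, so it too was highest on RV 3 and RV 4. Over the 5 smooth muscle markers, all well above background on every array, the summed linear level was 176 to 282 in the RV, 173 to 195 in the LV and 169 to 202 in the septum. Of these markers 0 were called in either comparison, and Acta2 and Smtn differed by -0.31 and 0.02 between the RV and the LV. Their part in the Tpm2 difference was not tested. A second, dimmer Tpm2 probe went the other way, with levels of -0.27, -0.21, -0.20 and -0.49 in the RV, -0.11, 0.08 and -0.01 in the LV, and 0.15, 0.10 and 0.10 in the septum. It was lower in the RV than in the LV by 0.28 (difference -0.28, SE 0.09, adjusted p = 0.12) and than in the septum by 0.41 (difference -0.41, SE 0.09, adjusted p = 0.053), so the direction of Tpm2 rests on the probe. Cardiac actin, Actc1, and the main cardiac tropomyosin, Tpm1, were again chosen after their values were seen. Actc1 differed by -0.22 between the RV and the LV (95% interval -0.38 to -0.05, adjusted p = 0.14), and by -0.20 with the number as a block, which was called (adjusted p = 0.0496). Tpm1 differed by -0.02 (95% interval -0.23 to 0.19).

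**Figure D3:**
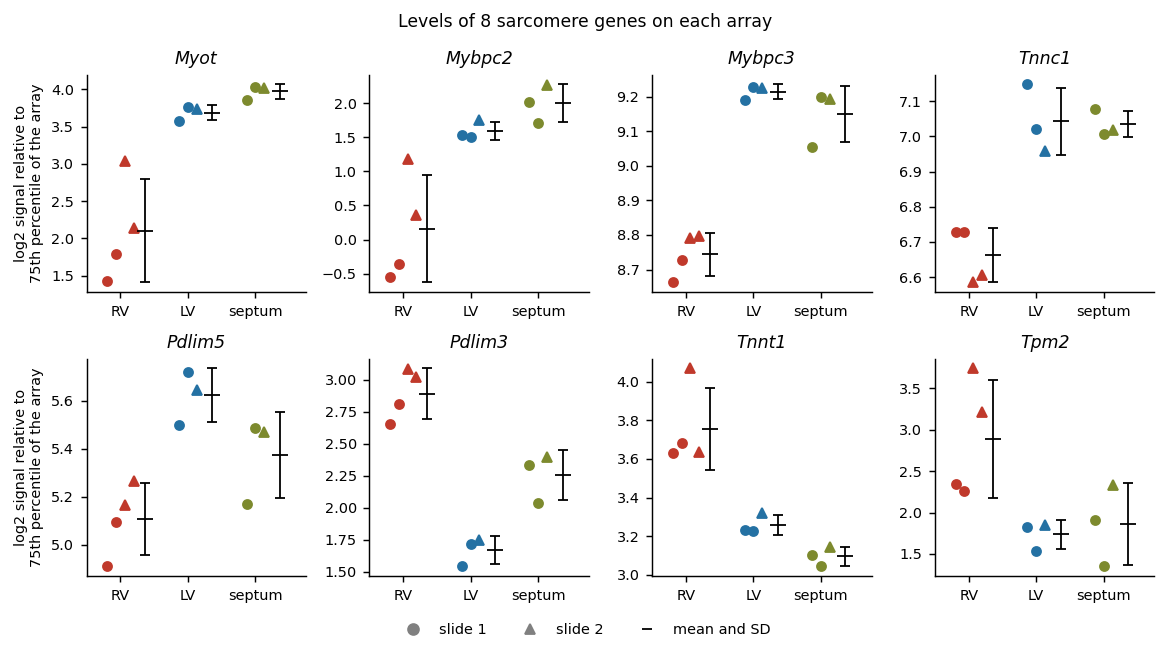
Log2 level relative to the 75th percentile of the array (vertical axis) on each RV, LV and septum array for the 7 called genes and Tpm2. Circles are slide 1 and triangles slide 2, and bars give the mean and SD of 4 RV, 3 LV and 3 septum arrays. The RV arrays lie below all LV and septum arrays for Myot, Mybpc2, Mybpc3 and Tnnc1 and above them for Pdlim3 and Tnnt1.

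The 5 genes of thin filament length and actin assembly, Tmod1, Lmod2, Lmod3, Cap2 and Fhod3, cap the thin filament, elongate it or build it. None was called. Their differences between the RV and the LV ran from -0.29 to -0.17, and those between the RV and the septum from -0.30 to -0.04. With the slide as a block Cap2 was called lower in the RV than in the LV, and 0 of the 5 were called against the septum.

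Among the partners of the thick filament, Mybpc3 was lower in the RV in both comparisons and Mybpc2 against the septum. Mybpc3 encodes the cardiac myosin-binding protein C, a gene often mutated in inherited hypertrophic cardiomyopathy. Its levels were 8.66, 8.73, 8.79 and 8.80 in the RV, 9.19, 9.23 and 9.22 in the LV, and 9.06, 9.20 and 9.19 in the septum. The 4 RV arrays were the lowest, with means of 8.74 ± 0.06 in the RV (SD, n = 4), 9.21 ± 0.02 in the LV (SD, n = 3) and 9.15 ± 0.08 in the septum (SD, n = 3). The RV lay 0.47 below the LV (difference -0.47, SE 0.07, 1.38-fold, adjusted p = 0.0089) and 0.40 below the septum (difference -0.40, SE 0.07, 1.32-fold, adjusted p = 0.025). Against the LV it was called in all 10 fits that left out an array, at -0.49 to -0.44. Against the septum the difference, at -0.45 to -0.38, lost the call without RV 1, RV 2, RV 4, septum 2 or septum 3.

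Mybpc2 encodes the fast skeletal myosin-binding protein C. Its levels were -0.55, -0.36, 1.19 and 0.36 in the RV, 1.53, 1.51 and 1.75 in the LV, and 2.02, 1.72 and 2.27 in the septum. The RV arrays were the lowest and spread most, with RV 3 nearest the other regions. The RV lay 1.84 below the septum (difference -1.84, SE 0.36, 3.58-fold, adjusted p = 0.037) and 1.44 below the LV (difference -1.44, SE 0.36, 2.70-fold, adjusted p = 0.060). The latter difference was called with the number as a block (-1.50, SE 0.31, adjusted p = 0.029) and with the slide as a block (-1.55, SE 0.25, adjusted p = 0.0067). Within slide 1 the RV differed from the LV by -1.97 and from the septum by -2.32, and within slide 2 by -0.98 and -1.49. Without RV 3 the difference to the septum was -2.18 and was called (adjusted p = 0.0039), and it lost the call in each of the other 9 fits, with the smallest size at -1.60.

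Neither of the other thick filament genes was called. Mybpc1, the slow skeletal form, was 0.37 higher in the RV than in the LV (SE 0.13, adjusted p = 0.14), with no overlap between these arrays. Mybphl encodes a myosin-binding protein H-like protein that is best known from the atria. Its levels were -1.08, -2.88, -1.79 and -3.90 in the RV, -1.28, -4.10 and -1.79 in the LV, and 2.09, -0.62 and -3.36 in the septum. It was well above background on all 4 RV arrays, 2 of 3 LV arrays and 2 of 3 septum arrays, and septum 1 stood highest. The difference between the RV and the septum was -1.78 (SE 1.22, adjusted p = 0.58), -0.42 without septum 1, and 0.52 within slide 2.

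Of the atrial myocardium markers, Sln, Myl4 and Myl7 were highest on septum 1 and lowest among LV arrays on LV 2, as Mybphl was. Sln, the atrial regulator of the calcium pump, was 6.21, 4.14 and 0.49 on septum arrays 1 to 3, and 2.87, -0.15 and 2.37 on the LV arrays. The summed linear level of the 7 atrial markers was 34.5 to 113 in the RV, 103 to 151 in the LV and 117 to 596 in the septum, where septum 1 was highest. Of these markers 6 were well above background on every array, and Bmp10 was so on 0. Nppa had no such low value on LV 2, at 6.79, 6.55 and 6.48 on the LV arrays, and Kcnj3 varied little, from -0.18 to 0.57 over all arrays. Dkk3 was called higher in the RV than in the LV, by 3.08 (adjusted p = 0.010). Their part in the Mybphl values was not tested. Without septum 1, 6 sarcomere genes were called between the RV and the LV, and 2 between the RV and the septum, beside 3.87% and 1.84% of all genes.

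Titin and the 3 myomesins of the M-band had lower means in the RV than in the other regions, and none was called by the fit without a block. Within slide 1 Myom3 was called in both comparisons, though its RV arrays overlapped those of the other regions over both slides. Titin, encoded by Ttn, is the giant elastic protein of the sarcomere. Its levels were 7.08, 7.01, 7.15 and 7.33 in the RV, 7.54, 7.44 and 7.69 in the LV, and 7.56, 7.33 and 7.64 in the septum. The RV mean was lower than that of the LV by 0.41 (difference -0.41, SE 0.11, adjusted p = 0.071) and of the septum by 0.37 (difference -0.37, SE 0.11, adjusted p = 0.15). With the number as a block these were -0.48 (SE 0.06, adjusted p = 0.0090) and -0.43 (SE 0.06, adjusted p = 0.014), and with the slide as a block they were -0.45 and -0.40 and were also called. A dimmer Ttn probe was called without any block, with an LV difference of -0.50 (SE 0.08, adjusted p = 0.012) and a septum difference of -0.44 (SE 0.08, adjusted p = 0.029). The myomesin genes Myom1, Myom2 and Myom3 differed between the RV and the LV by -0.34, -0.41 and -0.48. With the slide as a block Myom1 and Myom2 were called against the LV and Myom1 against the septum. With the number as a block the first 2 were called against the LV and none against the septum.

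In the Z-disc, 1 of 11 genes was called higher and 2 lower in the RV than in the LV, and 1 higher and 1 lower than in the septum. The largest difference of all 41 genes was in Myot. Myot encodes myotilin, which crosslinks actin and binds alpha-actinin. Its levels were 1.43, 1.79, 3.04 and 2.14 in the RV, 3.57, 3.77 and 3.73 in the LV, and 3.86, 4.03 and 4.02 in the septum. All RV arrays were below all others, and RV 3 was again the nearest to them. Means were 2.10 ± 0.69 in the RV (SD, n = 4), 3.69 ± 0.10 in the LV (SD, n = 3) and 3.97 ± 0.09 in the septum (SD, n = 3). The RV lay 1.59 below the LV (difference -1.59, SE 0.31, 3.0-fold, adjusted p = 0.025) and 1.87 below the septum (difference -1.87, SE 0.31, 3.65-fold, adjusted p = 0.020).

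The Myot difference to the LV was -2.06 within slide 1 and -1.14 within slide 2, and that to the septum was -2.33 and -1.42. Left-out arrays kept it between -1.90 and -1.36 against the LV and between -2.18 and -1.64 against the septum. The first call was lost without RV 2, RV 4 or any LV array, and the second without RV 2, RV 4, septum 2 or septum 3. By the methods' analysis of variance with Tukey's correction, adjusted over probes, Myot was called in neither comparison. On RV arrays 1 to 4 the summed level of the 6 mesothelium markers was 21.9, 21.7, 7.51 and 14.7, so RV 3, with the highest Myot and Mybpc2 among the RV arrays, had the lowest sum. Their part in the Myot and Mybpc2 differences was not tested. Of 14 skeletal muscle markers, Myh1, Ryr1, Myog and Myod1 were well above background on 0 arrays. The summed level of that list was 27.8 to 29.3 in the RV, 31.1 to 37.0 in the LV and 30.9 to 41.4 in the septum. Pvalb was called lower in the RV than in the septum at -1.83 (adjusted p = 0.0015), and Casq1 was not called at -1.51 (adjusted p = 0.085). Mylpf differed little, by 0.01 against the LV and 0.08 against the septum. Actn3 went the other way. It was well above background on 3 of 4 RV arrays and on 0 LV and 0 septum arrays, and did not pass the filter on dim probes. The part of these markers was not tested.

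**Figure D4:**
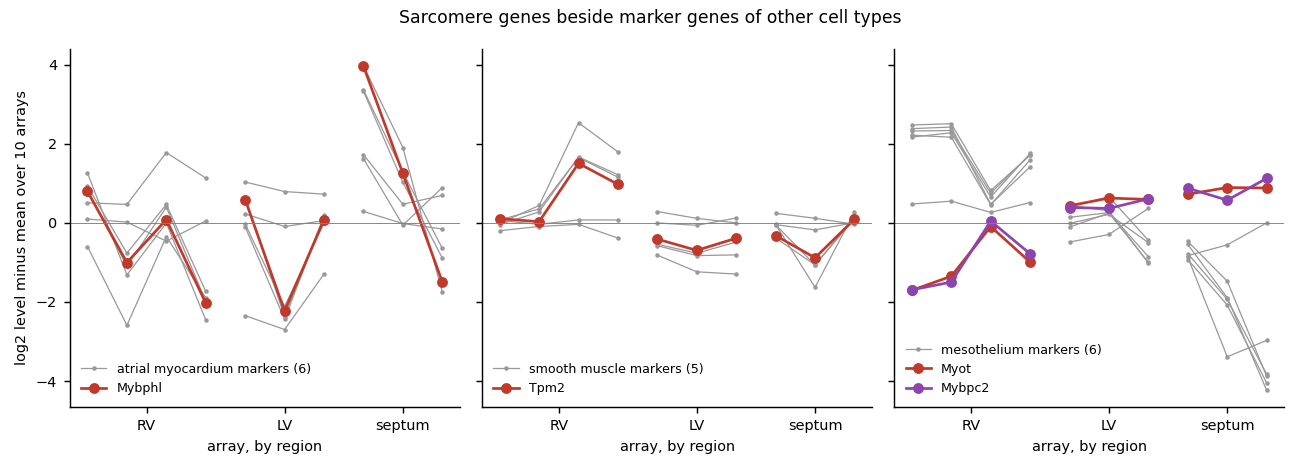
Log2 level minus the mean over 10 arrays (vertical axis) on each array, by region, for Mybphl with 6 atrial myocardium markers, Tpm2 with 5 smooth muscle markers, and Myot and Mybpc2 with 6 mesothelium markers (grey). Lines join arrays of a region for legibility only. Mybphl and Sln are highest on septum 1, Tpm2 and Cnn1 on RV 3, and the mesothelium sum is lowest among the RV arrays on RV 3.

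Pdlim3 and Pdlim5 encode related PDZ and LIM domain proteins that bind alpha-actinin at the Z-disc, and they moved in opposite directions. Pdlim3 levels were 2.66, 2.81, 3.08 and 3.03 in the RV, 1.54, 1.72 and 1.75 in the LV, and 2.33, 2.04 and 2.40 in the septum. The 3 regions did not overlap, with the RV highest, the septum between and the LV lowest. The RV exceeded the LV by 1.22 (SE 0.13, 2.34-fold, adjusted p = 0.0030) and the septum by 0.64 (SE 0.13, 1.56-fold, adjusted p = 0.042). The difference to the LV was called in all 10 fits that left out an array (1.16 to 1.30), and within slide 1 (1.1, adjusted p = 0.031). Within slide 2, where LV 3 is the only LV array, it was 1.31. The septum difference of Pdlim3 ran from 0.53 to 0.72 over the 10 fits that left out an array and was called only without RV 1.

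Pdlim5 levels were 4.91, 5.10, 5.16 and 5.26 in the RV, 5.50, 5.72 and 5.64 in the LV, and 5.17, 5.49 and 5.47 in the septum. The RV lay below the LV on every array and overlapped the septum. The difference to the LV was -0.51 (SE 0.11, 1.43-fold, adjusted p = 0.042) and that to the septum -0.27 (SE 0.11, adjusted p = 0.34). With the number as a block the second was called, at -0.32 (SE 0.06, adjusted p = 0.030). The first lost its call in 9 of 10 fits that left out an array and kept it without septum 1, with values from -0.57 to -0.45. A second Pdlim5 probe gave -0.49 against the LV (adjusted p = 0.034) and the third gave 0.12 (adjusted p = 0.74).

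Among Z-disc genes, Ldb3, Actn2, Nexn and Tcap were called with a block. Nexn, the gene of the actin-binding protein nexilin, was lower in the RV than in the LV with the slide as a block (-0.26, adjusted p = 0.025) and with the number as a block (-0.27, adjusted p = 0.035). Tcap, which encodes the titin cap protein, was lower than in the LV with the slide as a block (-0.17, adjusted p = 0.042). The number as a fixed block gave no call against the LV (-0.16, adjusted p = 0.082), whereas a random replicate block did. With adjustment over probes, Tukey's correction after analysis of variance called Tcap lower in the RV than in the LV and the septum. Ldb3 encodes a further PDZ and LIM domain protein, also known as Cypher or ZASP. Its levels were 4.70, 4.86, 4.84 and 4.88 in the RV, 5.12, 5.34 and 5.48 in the LV, and 4.94, 5.21 and 5.40 in the septum. The RV arrays were the lowest, by a mean of 0.50 against the LV (difference -0.50, SE 0.12, adjusted p = 0.059) and 0.37 against the septum (difference -0.37, SE 0.12, adjusted p = 0.21). With the number as a block these were -0.52 (adjusted p = 0.012) and -0.39 (adjusted p = 0.031). Actn2, the alpha-actinin that anchors thin filaments at the Z-disc, differed by -0.34 (adjusted p = 0.23) and -0.28 (adjusted p = 0.44) without a block and by -0.39 (adjusted p = 0.017) and -0.33 (adjusted p = 0.036) with the number as a block. Slide 2 arrays were brighter than slide 1 arrays of the same region for both genes, except that RV 3 lay slightly below RV 2 in Ldb3.

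Synpo2l, which encodes a Z-disc protein that binds actin, was not called by its brightest probe, at -0.18 against the LV and -0.13 against the septum. A dimmer probe read -1.28, -1.07, -1.17 and -1.43 in the RV, -0.40, -0.24 and -0.61 in the LV, and -0.35, -0.29 and -0.16 in the septum. There the RV arrays were the lowest, by 0.82 against the LV (difference -0.82, SE 0.11, adjusted p = 0.0066) and by 0.97 against the septum (difference -0.97, SE 0.11, adjusted p = 0.0050). Of the 41 genes, 16 had several tested probes, and in 6 of them the probes differed in sign between the RV and the LV. Over all 63 tested probes, 9 were called in each of the 2 comparisons, beside 1167 and 628 of all 30234 probes.

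**Figure D5:**
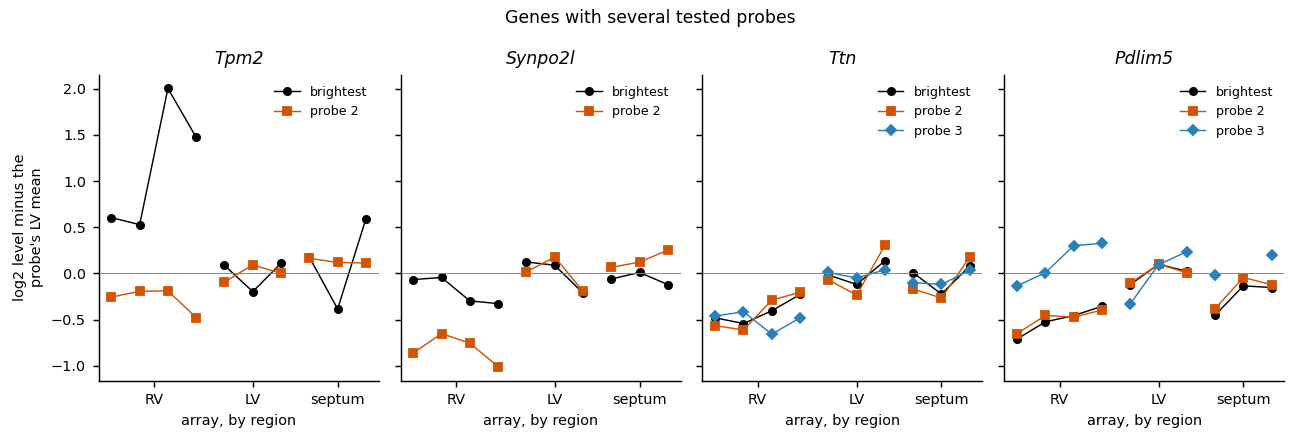
Log2 level of each tested probe of Tpm2, Synpo2l, Ttn and Pdlim5 minus the probe's LV mean (vertical axis) on the RV, LV and septum arrays. Lines join arrays of a region for legibility only, and 1 probe of Pdlim5 lacks a value on 1 septum array. The Tpm2 probes point in opposite directions in the RV, whereas the dimmer Synpo2l probe lies well below 0 on all 4 RV arrays.

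Desmin, the chaperones Cryab and Unc45b, which fold or protect sarcomere proteins, and Smyd1 gave no call without a block. Their differences ran from -0.30 to -0.08 between the RV and the LV and from -0.24 to -0.07 between the RV and the septum. With the slide as a block Des was called lower in the RV than in the LV, at -0.36 (adjusted p = 0.033). With the number as a block Des (-0.38, adjusted p = 0.032) and Unc45b (-0.26, adjusted p = 0.046) were.

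Between the septum and the LV, 0 of the 41 genes were called by limma, where the background was also 0, and the median difference was -0.05. With the slide as a block 0 were called, beside 0.0751% of all genes, and with the number as a block 0, beside 0%. The arrays of both regions did not overlap in 8 genes, beside 7.40% of all genes. The smallest unadjusted p of the 41 genes was that of Pdlim3. It was 0.59 higher in the septum (SE 0.14, unadjusted p = 0.0019, adjusted p = 0.60), and all 3 septum arrays lay above all 3 LV arrays. The methods' analysis of variance with Tukey's correction called Pdlim3 with and without adjustment over probes, where 0.642% and 1.54% of all genes were called. The largest increase was that of Mybphl at 1.76 (SE 1.30), which was above background on all arrays of neither region. Below Pdlim3 followed Mybpc2 at 0.40 (SE 0.39) and Tnni1, the slow skeletal troponin I gene, at 0.32 (SE 0.16). The largest decreases were those of Pdlim5 at -0.25 (SE 0.12), Tnnt1 at -0.16 (SE 0.12) and Lmod2 at -0.15 (SE 0.24). The 95% interval lay within 1 unit of 0 on both sides for 38 of the 41 genes.

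A further list held 50 genes of the sarcomere and its surroundings, such as chaperones and Cavin4. The list was also chosen with earlier results of these data known. It was read in the same way, and 47 genes were tested. Against the LV 9 of these were called, all lower in the RV, beside 4.98% of all genes, or 1.84% for lower genes. Their median difference was -0.34, beside -0.05 over all genes. Against the septum 7 were called, all lower in the RV, beside 2.70%, or 1.02% for lower genes. The median was -0.23, beside -0.04 over all genes, and all 7 were also among the first 9. Among called genes, the 3 largest decreases against the LV were those of Ankrd23, a stretch-responsive titin partner, at -1.51 (SE 0.35, adjusted p = 0.049), Neb at -1.15 (SE 0.21, adjusted p = 0.020) and Alpk3 at -0.76 (SE 0.15, adjusted p = 0.024). Against the septum they were Neb at -1.50 (SE 0.21, adjusted p = 0.011), Alpk3 at -0.70 (SE 0.15, adjusted p = 0.046) and Cavin4 at -0.58 (SE 0.09, adjusted p = 0.016). Larger than most of these, but not called, were the decreases of Acta1, the skeletal actin gene, at -1.58 against the LV (adjusted p = 0.13) and -1.56 against the septum (adjusted p = 0.21), and those of Ankrd23 and Ankrd1 against the septum, at -1.55 (adjusted p = 0.065) and -1.31 (adjusted p = 0.063). With either block the last 2 were called. Neb, which encodes the thin filament ruler nebulin, was well above background on 2 of 4 RV arrays, so its size there is uncertain. Ankrd23 read 3.18, 3.57, 4.74 and 4.14 in the RV, so RV 3 was again the nearest to the LV, at 5.16 to 5.78. With the slide as a block 25 and 17 of the 47 genes were called, beside 21.3% and 11.0% of all genes. With the number as a block 26 and 17 were, beside 17.9% and 8.69%. Between the septum and the LV 0 of them were called in any of these fits.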

How the data were processed

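Deposited files of 10 single-colour Agilent arrays were analysed (4 RV, 3 LV and 3 septum, grouped by title). Per the file headers and labels, intensity values came from the program Agilent Feature Extraction (version 11.5.1.1), which the authors ran and which subtracts background and sets flags. A second deposited file, with log2 values scaled by the authors, served as an alternative. In the file of RV 1 the signals had been rounded to 3 digits.

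The processed intensity was taken as log2, outlier spots were left out, repeat spots were averaged, and each array was scaled to its 75th percentile. A probe was tested if all arrays of some region had it well above background, which left 30234 of 56605 probes. Probes were named through their RefSeq accession (assembly GRCm38.p6), and a gene was read by the probe with the highest mean. Limma (version 3.58.1, R 4.3.3) was fitted to all 10 arrays with a mean per region, without a block and with 2.46 prior degrees of freedom. Tests were two-sided with Benjamini-Hochberg adjustment over all tested probes. The methods name an analysis of variance, which was run as an alternative. Fits were tested on simulated data.

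Same-numbered arrays of different regions had correlations of 0.36 to 0.64 in their deviations from the region means, over all 9 pairs. The number was therefore tried as a block. Arrays with another number on the same slide gave 0.09 to 0.31 on slide 1, where same-numbered arrays gave 0.36 to 0.52. On slide 2 arrays with another number gave 0.57 and 0.58, and same-numbered arrays gave 0.43, 0.44 and 0.64. Pairs by number thus stood apart on slide 1 and not on slide 2, and shared animals cannot be read from them. Arrays of different slides gave -0.56 to -0.21.

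The genes and lists were chosen with earlier results of these data known. Named with full values are the called genes, the 3 largest increases and decreases of each comparison among genes above background throughout one of its regions, and the 3 largest each way among those called only with the slide block. In the list of further genes of the sarcomere and its surroundings the 3 largest called each way are named.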

Additional observations from a re-analysis of the deposited data

Results flagged for a closer look

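In 2 of the 41 genes, 1 RV array lay apart from the other 3 by more than Dixon's test allows at 95%, and chance marks about 1 in 20 such groups. Tnnt1 was 4.07 on RV 3, where the nearest RV array was 3.68, so the gap was 0.879 of the RV range (critical value 0.829). Nebl, which encodes the Z-disc protein nebulette, was 2.64 on RV 1, where the nearest was 2.48 and the gap was 0.830 of the range. Nebl differed by -0.01 between the RV and the LV and was not called.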

How the results depend on the processing

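The number of sarcomere genes called between the RV and the LV (6) stayed within 1.5 times under 8 alternatives. It was 3 when arrays were scaled by the median, 1 without the filter on dim probes, 10 with array weights, 1 within slide 2, 17 by analysis of variance with Tukey's correction before adjustment over probes, 18 with a replicate block, 21 with a random replicate block and 19 with the slide as a block. Over all genes, array weights called 1681 of 14645, and the other 7 of these fits called 2.85%, 0.729%, 1.39%, 16.1%, 17.9%, 22.5% and 21.3%, against 4.98%. Between the RV and the septum (6) it was 1, with 0 higher in the RV, when scaled by the median, where 2 of 6 were higher before. It was 0 without the filter, 0 within slide 2, 10 by unadjusted analysis of variance, and 12, 11 and 14 with the slide, the number and the random number as a block, beside 2.03%, 0.336%, 0.649%, 11.3%, 11.0%, 8.69% and 12.8% of all genes, against 2.70%. Between the septum and the LV (0) it was 1 by analysis of variance with adjustment and 1 without, beside 0.642% and 1.54% of all genes. With adjustment the analysis of variance called the same 5 genes in both comparisons with the RV, beside 3.29% and 3.26% of all genes. They were Mybpc3, Pdlim3, Tcap, Tnnc1 and Tnnt1, so Myot, Mybpc2 and Pdlim5 were not called by it. Leaving out an array gave 2 to 6, 0 to 4, and 0, beside 1.66% to 4.19% and 0.526% to 2.43% of all genes. The cause of these moves was not tested. The planned normexp correction on mean signals was not run, since the files used here hold median signals. It was run on those after the data were examined and gave 7, 6 and 0, beside 4.88%, 2.78% and 0.0137% of all genes.

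Over all genes, the share of called genes that were higher in the RV than in the LV was 63.1%, and 77.1% when arrays were scaled by probes above background on all arrays, 41.3% with the slide block, 40.6% with the replicate block and 40.2% by unadjusted analysis of variance. Against the septum it was 62.3%, and 75.4% when scaled by the median, 48.3%, 48.1% and 42.3% in those 3 fits. Among genes named by the rule, 12 of 857 values changed sign. Mybphl against the septum was 0.52 within slide 2. The rest were differences between the septum and the LV, none of them called. Left-out arrays gave Lmod2 a range from -0.37 to 0.037, above 0 without LV 3 or septum 2, and Tnnc1 a range from -0.049 to 0.045, above 0 without LV 1, septum 2 or septum 3. Mybpc3 was 0.0054 and Tnnc1 0.033 with quantile normalization. Tnnc1 was also 0.014 when scaled by probes above background on all arrays, 0.0046 with normexp and 0.059 within slide 2. Pdlim5 was 0.47 as the mean of its probes. The dimmest of them lacks a value on septum 2, so the mean of that array rests on the brighter probes alone. Read singly, the brightest Pdlim5 probe gave -0.25, the second -0.18 and the third 0.09. Beyond the changes named beside the results, the replicate block changed no call among the 41 genes. Signal over background limits Mybphl and Neb, and 10 arrays limit every difference.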
